A study of Mus musculus with 2 samples.

Results

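Foxp3-positive T cells of dorsal mouse skin were picked out of a single-cell RNA-seq data set of an atopic dermatitis (AD) model. Members were chosen by their measured transcripts: a cell was selected when it held at least 1 unique molecular identifier (UMI, 1 counted transcript) of Foxp3 and at least 1 UMI of the CD3 chain genes Cd3e, Cd3d and Cd3g together, with no UMI of Trdc (γδ T cells), Pdgfra (fibroblasts) or C1qa (macrophages). Of 19578 cells that had 200 to 6000 detected genes and at most 10% mitochondrial UMIs, 140 met this rule. There were 97 among 11399 cells of the control (Ctrl) library and 43 among 8179 cells of the AD library.

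The mice were female C57BL/6J, aged 7 weeks, and their backs were depilated before a 2 cm by 2 cm area was treated. In the AD group MC903 (calcipotriol, a vitamin D analogue that provokes a dermatitis rich in type 2 cytokines) was applied daily at 4.5 nmol, and the Ctrl group received ethanol. Skin was taken on day 10 in both groups and digested whole, without sorting. Each condition was 1 library, and the number of mice behind a library was not given, so no difference between AD and Ctrl could be tested against variation between mice. Intervals in parentheses are exact 95% intervals, Poisson for UMI totals and Clopper-Pearson for shares of cells, and cover counting error only.

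Regulatory T cells are CD4+ T cells whose identity depends on the transcription factor Foxp3, and they restrain other lymphocytes. They carry the high-affinity interleukin 2 receptor chain Il2ra, which takes up interleukin 2, and Ctla4, which removes costimulatory ligands from antigen-presenting cells. In skin they sit largely around hair follicles, often express the alarmin receptor Il1rl1 (ST2) and the type 2 regulator Gata3, and can release the growth factor Areg. Because the rule read Foxp3, the CD3 genes, Trdc, Pdgfra and C1qa, the values of these genes describe the choice and are not results.

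The Foxp3-positive cells were shallow in Ctrl and deeper in AD. The median was 2907 UMIs per cell in Ctrl (1280 to 18960) and 5388 in AD (1555 to 30124), with 1483 and 2262 detected genes. In all, 363268 UMIs stood behind the Ctrl values and 315301 behind the AD values, so 3 UMIs, the limit that a count of 0 allows, were worth 8.26 CPM (UMIs of a gene among 1000000 UMIs of the group) in Ctrl and 9.51 CPM in AD. Among the Ctrl members 45 held 1 Foxp3 UMI, 27 held 2, 15 held 3 and the other 10 held 4 to 6, and among the AD members 12 held 1, 15 held 2, 3 held 3 and the other 13 held 4 to 10. Foxp3 itself summed to 520.3 CPM (449 to 600.0) in Ctrl and 387 CPM (321 to 462) in AD. A total of 35 barcodes occurred in both libraries, and 1 of them was a Ctrl member and none an AD member.

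Foxp3-positive cells took up a smaller share of the gated T cells in AD than in Ctrl. Of the 523 Ctrl cells that met the rule apart from Foxp3, 18.5% (15.3 to 22.1) held Foxp3, against 12.4% (9.09 to 16.3) of 348 in AD. The ratio of these shares was 0.666 (0.454 to 0.963). Of all kept cells the members were 0.851% (0.691 to 1.04) in Ctrl and 0.526% (0.381 to 0.708) in AD. The AD cells were deeper, which eases detection, and after thinning every cell to 1000 UMIs the share of gated cells with Foxp3 was 8.94% (37 of 414) in Ctrl and 3.46% (8 of 231) in AD. With the gate read from the whole cells and only Foxp3 read from the thinned ones, the shares were 9.36% of 513 cells and 4.39% of 342. As background, a Foxp3 UMI was found in 0.478% of the Pdgfra-positive cells of Ctrl and 0.232% of those of AD, at a median of 9087.5 and 6939 UMIs per cell. It was found in 0.842% and 0.102% of the Krt14-positive cells, 0.839% and 0.332% of the C1qa-positive cells and 1.22% and 0.752% of the Trdc-positive cells. These rates were of the order of the members' share of all kept cells and far below their share of the gated T cells. When at least 2 Foxp3 UMIs were asked for, the shares were 9.94% in Ctrl and 8.91% in AD. When 2 receptor UMIs were asked of the members and of the other gated cells alike, a condition added after seeing the data, they were 17.5% of 377 cells and 14.2% of 282, a ratio of 0.810 (0.533 to 1.22) whose interval includes 1.

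The label of regulatory T cells was checked against the 3 other markers. Of the 97 Ctrl members 50 held Ctla4, Il2ra and Icos together and 37 held 2 of these, and of the 43 AD members 29 held all 3 and 12 held 2. Of the Foxp3-negative T cells described below, 38 of 311 in Ctrl held all 3 and 60 held 2, and 51 of 242 in AD held all 3 and 105 held 2. Holding all 3 was thus more frequent among the members, at 51.5% against 12.2% in Ctrl and 67.4% against 21.1% in AD, while holding exactly 2 was more frequent among the negative cells in AD. Cd4 without a Cd8 gene was found in 42 Ctrl and 28 AD members, and a Cd8 gene without Cd4 in 1 member of each library. The 8 measured genes of a γδ T cell list, Trdc among them, had 0 UMIs in both groups of members, and a list of CD8 T cell genes summed to 118 CPM in Ctrl and 124 CPM in AD. Variable segments of the T cell receptor β chain were counted in only 4 Ctrl and 7 AD members, every one a different segment. Those of the α chain were counted in 6 Ctrl and 7 AD members, and only Trav8n-2 was shared within a library, by 2 AD members. Clonal relations were thus not visible at this depth.

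RNA of other skin cells moved with the library. A list of 10 fibroblast genes summed to 2808 CPM (2638 to 2986) in the Ctrl members and 95.1 CPM (64.2 to 136) in the AD members, against 35601 and 12255 CPM over all kept cells, led in Ctrl by the collagen gene Col1a2 at 575 CPM. Pdgfra was 0 by the rule, and 9 of the 10 genes had a UMI in the Ctrl members and 7 in the AD members. Col1a1, the other chain of type I collagen, had 493 CPM in Ctrl (179 UMIs in 47 cells, 74 of them in 1 cell) and 3.17 CPM in AD (1 UMI). Keratinocyte genes summed to 845 CPM in Ctrl, where all 10 had a UMI, and 244 CPM in AD, where 4 did and Krt14 had none, led in both by Lgals7 at 187 and 197 CPM. Dendritic cell genes summed to 1208 and 136 CPM, led by the MHC class II chaperone Cd74 at 628 and 76.1 CPM. In Ctrl 1 member carried 141 of the 228 Cd74 UMIs and 63 of the 71 UMIs of H2-Ab1. The dendritic cell genes Itgax, Cd209a, Xcr1, Clec9a and Cd207 had no UMI in the members of either library. A list of innate lymphoid and natural killer cell genes summed to 724 and 466 CPM, led by Gata3, with Il5, Il13, Ncr1, Klrb1c and Eomes at 0 in both. The other lists summed to 110.1 and 9.51 CPM for macrophages, 107 and 38.1 CPM for endothelium, 201 and 9.51 CPM for pericytes, 82.6 and 19.0 CPM for erythroid cells, 19.3 and 12.7 CPM for mast cells, and 2.75 and 0 CPM for neutrophils. The part of this RNA in the differences between the libraries was not tested, and values without the cells that held a Krt14, Col1a1, Lyz2 or Cpa3 UMI, which left 43 Ctrl and 41 AD members, are given beside many of the results they moved.

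The Foxp3-positive cells were described against Foxp3-negative T cells of the same library. Cells with at least 2 UMIs of the receptor constant genes Trac, Trbc1 and Trbc2 numbered 1076 in Ctrl and 444 in AD, but 551 and 97 of them held no CD3 UMI, and only 57.4% of those in Ctrl held the leukocyte gene Ptprc, against 85.4% in AD. The comparison was therefore made with those that also met the CD3, Trdc, Pdgfra and C1qa conditions, 311 cells in Ctrl and 242 in AD, at a median of 3110 and 6598 UMIs. These cells carried RNA of other cells as well: keratinocyte genes summed to 7541 CPM in Ctrl and 338 CPM in AD, fibroblast genes to 2690.5 and 180.4 CPM, and mast cell or basophil genes to 16.5 and 391 CPM, led in AD by the chymase gene Cma1 at 89.7 CPM. In Ctrl 7 of the 9 ranked keratinocyte genes were lower by 2-fold in the members than in these cells. Over all ranked genes 4.94% were lower. For at least Krt1, Krt10, Krtdap, Dsp and Perp the filter given below fixed that direction, since the members had less than 100 CPM of each. The part of this RNA in the comparisons was not tested. Levels are the summed UMIs of a group of cells scaled to CPM by its own total, and ratios are log2 after adding 10 CPM, for genes that reached 100 CPM in one of the groups compared and 20 UMIs in both together (ranked genes). Differences of 2-fold and more are counted with no test, since cells of 1 library are not replicates. A gene that reached 100 CPM in only 1 of the groups compared could be higher only in that group. The filter fixed the direction of such genes, and the counts include them unless stated. Against all cells with 2 receptor UMIs, 733 of 2397 ranked genes (30.6%) were higher and 361 (15.1%) lower by 2-fold in the Ctrl members, and 176 of 2003 (8.79%) and 197 (9.84%) in the AD members. T cell genes such as Lck and Lat, a kinase and an adaptor of the receptor, were among the higher ones in Ctrl by that comparison and within 2-fold by the one used here.

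Most of the ranked genes known to mark regulatory T cells were higher in the Foxp3-positive cells of both libraries. In Ctrl, 8 of the 10 ranked genes of a list of regulatory T cell identity genes were higher by 2-fold and none lower, where 6.5% of all 2185 ranked genes were higher and 4.94% lower. In AD, 7 of 11 were higher and none lower, where 4.56% of 1888 ranked genes were higher and 3.5% lower. Of the higher genes, Ikzf4 and Tnfrsf9 in Ctrl and Ikzf4 and Lrrc32 in AD passed the minimum level only through the members. The filter fixed the direction of these, while the other higher genes reached that level in both groups. The median log2 ratio of the list was 1.86 in Ctrl and 2.14 in AD, beside 0.18 over all ranked genes in each library. Scaling by the median of ratios moved the median of all ranked genes by -0.30 in Ctrl and -0.31 in AD and gave 58 genes higher and 153 lower in Ctrl and 37 higher and 103 lower in AD. Leaving mitochondrial, ribosomal and haemoglobin genes out of the totals gave 141 higher and 155 lower in Ctrl and 111 higher and 126 lower in AD.

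**Figure D1:**
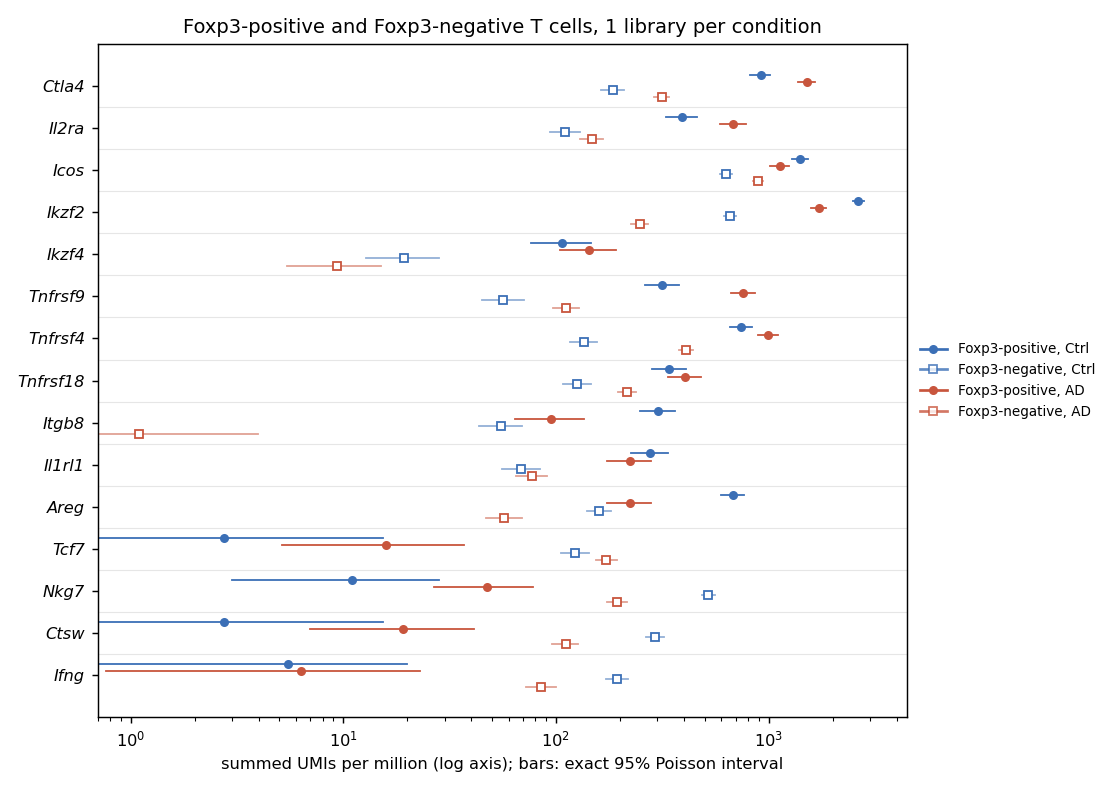
Levels of regulatory T cell genes in Foxp3-positive and Foxp3-negative T cells of the Ctrl and AD libraries, in CPM on a log axis, 1 point per group of cells with its exact 95% Poisson interval (1 library per condition, and intervals that reach below the axis are clipped at its edge). Ctla4 stood at 917 and 1509.7 CPM in the Foxp3-positive cells of Ctrl and AD and at 185 and 315 CPM in the Foxp3-negative cells.

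Ctla4 was among the clearest of them. It summed to 917 CPM (821 to 1021) in the Foxp3-positive cells of Ctrl, where 83 of 97 cells held it, and to 1509.7 CPM (1377 to 1652) in those of AD, where 42 of 43 did. The Foxp3-negative cells had 185 CPM (163 to 209) and 315 CPM (289.9 to 342). The intervals of positive and negative cells lay far apart in both libraries, with log2 ratios of 2.25 in Ctrl and 2.22 in AD. Il2ra stood at 391 CPM (329 to 461) against 110.5 CPM (93.7 to 129) in Ctrl and at 682 CPM (594 to 779) against 147 CPM (130.3 to 166) in AD. The costimulatory receptor Icos was more widely shared. It had 1412 CPM (1293 to 1539.8) in the Foxp3-positive and 629 CPM in the Foxp3-negative cells of Ctrl, and 1129 CPM (1015 to 1253) and 892 CPM in AD, a log2 ratio of 1.15 in Ctrl, which became 0.74 without the cells that held UMIs of other skin cells, and 0.34 in AD.

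The 4 markers lie on GRCm38 at chrX:7573644-7595245 (Foxp3), chr1:60887000-60915832 (Ctla4), chr2:11642807-11693193 (Il2ra) and chr1:60977927-61000320 (Icos), all on the plus strand, as whole genes of GENCODE M21. The libraries were read at the 3′ ends of transcripts, so a value belongs to the gene and not to an exon. The bases before the RefSeq start are shown for Ctla4 and Il2ra, as the surface markers with the clearest difference, and for Il1rl1, since one of its starts holds the letters GTAAACA, a core that forkhead factors such as Foxp3 bind. The sequences are from RefSeq on GRCm38.p6, plus strand, at chr1:60908775-60909024 for Ctla4, which falls inside the longer GENCODE gene, chr2:11642542-11642791 for Il2ra and chr1:40439379-40439628 for the downstream start of Il1rl1, where capitals mark the match, 117 bases before the start.
Ctla4: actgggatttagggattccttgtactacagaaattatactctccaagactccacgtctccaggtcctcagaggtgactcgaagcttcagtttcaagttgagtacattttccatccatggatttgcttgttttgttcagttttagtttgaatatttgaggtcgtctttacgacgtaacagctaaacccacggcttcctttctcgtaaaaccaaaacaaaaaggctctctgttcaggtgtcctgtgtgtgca
Il2ra: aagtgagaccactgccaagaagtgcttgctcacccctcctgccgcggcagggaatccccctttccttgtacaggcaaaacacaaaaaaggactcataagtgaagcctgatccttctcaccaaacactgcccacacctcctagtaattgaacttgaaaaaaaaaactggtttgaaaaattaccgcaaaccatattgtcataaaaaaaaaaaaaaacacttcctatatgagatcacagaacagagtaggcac
Il1rl1: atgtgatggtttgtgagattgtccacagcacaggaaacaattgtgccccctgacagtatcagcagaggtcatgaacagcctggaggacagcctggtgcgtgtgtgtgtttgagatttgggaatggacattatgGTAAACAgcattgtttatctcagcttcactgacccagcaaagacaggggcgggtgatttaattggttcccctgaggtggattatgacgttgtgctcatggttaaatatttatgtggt
GTAAACA or its reverse complement was found in 1040 of 32851 such windows (3.17%), and TTCCNGGAA, the letters of a STAT site, in 300 (0.913%), both strands searched. Of the 15 genes with the highest ratios in both libraries 9 were in the table, with 14 windows, and none held either.

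Members with more Foxp3 UMIs carried more of the other markers in part. Ctla4 in Ctrl was 172 CPM in gated cells with no Foxp3 UMI, 754 CPM with 1, 1134 CPM with 2 and 951 CPM with 3 or more. In AD it was 289, 1229, 1800.5 and 1492 CPM in the same order. The step from 0 to 1 UMI, the threshold of the rule, was thus the largest one for Ctla4 in both libraries, and the cells just inside the rule lay nearer to those with more Foxp3 than to those outside. Il2ra was 91.7, 349, 306 and 538 CPM in Ctrl and 138, 326, 424 and 935 CPM in AD. Icos was 499, 1217, 1568 and 1556 CPM in Ctrl and 793, 1169.9, 1019 and 1161 CPM in AD. These groups hold 426, 45, 27 and 25 cells of Ctrl and 305, 12, 15 and 16 of AD, and cells with more Foxp3 UMIs can also be deeper cells.

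**Figure D2:**
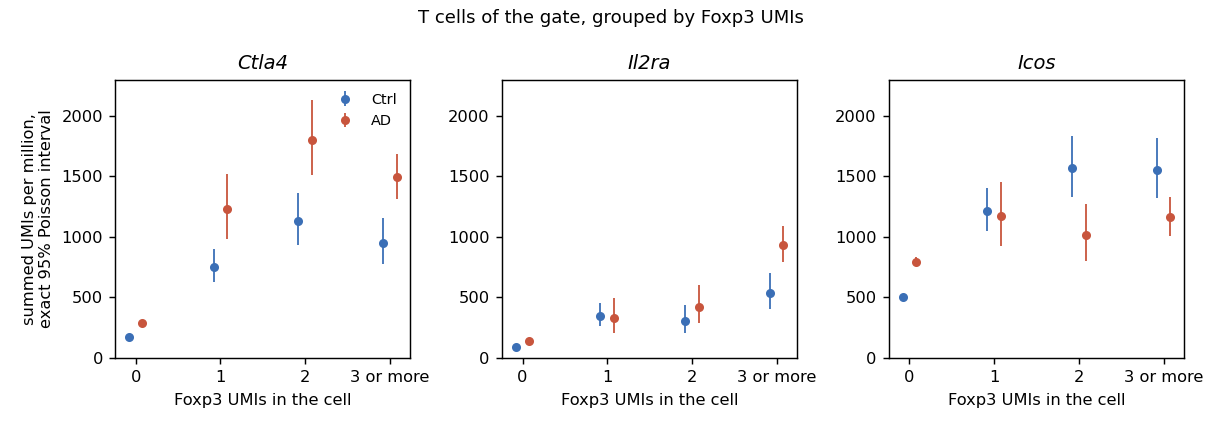
Level of Ctla4, Il2ra and Icos in CPM among gated T cells with 0, 1, 2 and 3 or more Foxp3 UMIs, by library, with exact 95% Poisson intervals. Ctla4 stepped from 172 to 754 CPM in Ctrl and from 289 to 1229 CPM in AD between 0 and 1 Foxp3 UMI.

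Ikzf2 and Ikzf4, transcription factors that work with Foxp3, were higher in the members of both libraries. Ikzf2 (Helios) had 2648 CPM (2483 to 2821) in the Foxp3-positive cells of Ctrl, 95 of 97 of which held it, and 1719 CPM (1577 to 1870.0) in those of AD, where 37 of 43 did. The Foxp3-negative cells had 657 and 248 CPM, and the log2 ratios were 1.99 in Ctrl and 2.74 in AD. Ikzf4 (Eos) was lower in level, with 107 CPM (76.3 to 147) in Ctrl and 143 CPM (104 to 191) in AD against 19.4 and 9.35 CPM. Ikzf2 was found in more members than Ctla4 in Ctrl and in fewer in AD.

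Among receptors of the tumour necrosis factor family, Tnfrsf4 and Tnfrsf9 were above Ikzf2 and Ikzf4 in ratio in Ctrl, while Tnfrsf1b was within 2-fold in both libraries, at log2 ratios of 0.87 and 0.63. Tnfrsf9 (4-1BB), a marker of recently stimulated regulatory T cells, had 317 CPM (261 to 380.0) in Ctrl and 758 CPM (665 to 860.4) in AD, against 56.7 and 112 CPM in the Foxp3-negative cells, with log2 ratios of 2.29 and 2.66. Tnfrsf4 (OX40) had 743 CPM (657 to 837) and 996 CPM (889 to 1112), against 136 and 409.8 CPM, with log2 ratios of 2.37 in Ctrl and 1.26 in AD. Tnfrsf18 (GITR) had 341 and 403 CPM against 126 and 217 CPM, with log2 ratios of 1.37 in Ctrl and 0.86 in AD. Lrrc32 (GARP), which holds latent TGF-β on the cell surface, had 44.0 CPM (25.2 to 71.5) in 10 Ctrl members and 114 CPM (80.0 to 158) in 21 AD members, against 17.2 and 10.5 CPM. Its level passed the minimum for ranking only in AD, with a log2 ratio of 2.60. Nrp1, often used for thymus-derived cells, was low in all 4 groups, at 33.0 and 22.2 CPM in the members and 25.8 and 37.4 CPM in the Foxp3-negative cells.

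About as many ranked genes of the programme of tissue regulatory T cells were higher as were within 2-fold, with the direction of several fixed by the filter. Of 15 ranked genes of that list in Ctrl, 8 were higher by 2-fold and none lower (median log2 ratio 1.01, beside 0.18 over all ranked genes, of which 6.5% were higher and 4.94% lower). Of the 8, Irf4, Maf and Nfil3 were within 2-fold without the cells that held UMIs of other skin cells, at 0.72, 0.82 and 0.74. In AD, where 4.56% of all ranked genes were higher and 3.5% lower, 7 of 16 were higher and 1 lower (median 0.75, beside 0.18). Among the higher genes, Il1rl1, Prdm1 and Dusp4 in both libraries passed the minimum level only through the members. The same held for Irf4 in Ctrl and for Areg and Penk in AD, so the filter fixed the direction of these. Areg, Maf, Hopx and Nfil3 in Ctrl and Hopx and Gzmb in AD reached that level in both groups. Il1rl1 had 278 CPM in 47 Ctrl members and 222 CPM in 18 AD members, against 68.9 and 77.0 CPM in the Foxp3-negative cells. Areg had 677 CPM (595 to 767) in Ctrl and 222 CPM (173 to 280.5) in AD, against 160.0 and 57.2 CPM. The log2 ratios were 2.02 and 1.79, and against all cells with 2 receptor UMIs they were 1.12 and 0.14, the latter within 2-fold. Areg and Gata3 were about as frequent in members with and without Il1rl1, whereas Itgae was in 33.3% of the AD members with Il1rl1 (6 of 18) and 60% of those without (70.2% and 70% in Ctrl), and Klrg1 in 22.2% and 12% in AD and 21.3% and 12% in Ctrl. The AD members with Il1rl1 were shallower, at a median of 4924.5 UMIs against 7008 for those without. These shares were not tested. Areg was in 72.3% of the Ctrl members with Il1rl1 and 70% of those without, and in 38.9% and 32% in AD, and Gata3 was in 66.0% and 70% in Ctrl and 66.7% and 68% in AD.

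Further genes of the list were the transcription factors Prdm1 (Blimp-1), with 135 and 114 CPM against 55.9 and 38.5 CPM, and Irf4, with 118 and 95.1 CPM against 53.8 and 46.8 CPM. The phosphatase gene Dusp4 had 292 and 222 CPM against 89.7 and 77.6 CPM, and Hopx, which serves the survival of peripherally induced regulatory T cells, had 559 and 365 CPM against 205 and 176 CPM. Maf, a regulator of interleukin 10, had 862 and 409 CPM against 366 and 278 CPM, and Nfil3 had 253 and 190.3 CPM against 106 and 99.6 CPM. The Hopx ratio in AD, 1.01, became 0.97 without the cells that held UMIs of other skin cells. In each of these pairs the member level was the higher one in both libraries. The filter fixed this for Prdm1 and Dusp4 in both, Irf4 in Ctrl and Nfil3 in AD. Bhlhe40 went the other way, with 102 CPM in the members of Ctrl and 130.0 CPM in those of AD against 186 and 356 CPM in the Foxp3-negative cells.

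Among the ranked genes of suppression, only Ctla4 and Itgb8 were higher by 2-fold in Ctrl, and only Ctla4 in AD. Itgb8 passed the minimum level in Ctrl only through the members, so the filter fixed its direction. In AD it was not ranked. Itgb8, the integrin chain with which regulatory T cells release active TGF-β, had 303 CPM (249 to 365) in 47 Ctrl members and 95.1 CPM (64.2 to 136) in 12 AD members. The Foxp3-negative cells had 55.2 CPM in Ctrl and 1.10 CPM in AD, the latter from 2 UMIs, and the log2 ratio in Ctrl was 2.26. Its partner chain Itgav, one of the 15 genes with the highest ratios in both libraries, had 581 and 317 CPM against 172 and 88.0 CPM, with log2 ratios of 1.70 and 1.74. In AD the filter fixed the direction of Itgav, which passed the minimum level only through the members. Il10 was sparse, with 77.1 CPM in 15 Ctrl members and 88.8 CPM in 9 AD members against 35.1 and 28.1 CPM. Entpd1 (CD39) had 38.5 and 38.1 CPM against 5.74 and 6.05 CPM, and Tigit 16.5 and 15.9 CPM against 5.74 and 5.50 CPM. Tgfb1 was about level in all 4 groups, between 159 and 182 CPM. Of the 13 genes of the suppression list 6 were ranked in Ctrl and 5 in AD, with 2 and 1 higher by 2-fold and none lower, where 6.5% and 4.56% of all ranked genes were higher. The median log2 ratio of the list was 0.49 in Ctrl and 0.05 in AD, beside 0.18 over all ranked genes in each.

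Across the 1666 genes ranked in both libraries, 47 were higher and 17 lower by 2-fold in both. The 15 with the highest ratios in both held, besides genes already named, Cd81 and Cd83 (surface proteins of lymphocytes and antigen-presenting cells), Tank (a brake on NF-κB signalling), Macir, Psen2 and Lamc1. Cd81, Cd83, Tank, Macir, Psen2 and Lamc1 passed the minimum level only through the members in both libraries, so the filter fixed their direction. Cd81 had 212 and 181 CPM in the members of Ctrl and AD against 63.1 and 42.4 CPM. Tank had 292 and 247 CPM against 99.7 and 50.6 CPM, and Macir had 215 and 206 CPM against 66.0 and 54.5 CPM. Cd83 had 262 and 136 CPM against 71.7 and 35.8 CPM, and Psen2, a catalytic part of γ-secretase, 118 and 117 CPM against 35.9 and 27.0 CPM. Lamc1, a laminin chain, had 220.2 and 114 CPM against 67.4 and 22.0 CPM, and its log2 ratio in Ctrl went from 1.57 to 0.97 without the cells that held UMIs of other skin cells.

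Transcripts of immunoglobulin constant regions were in the same set. Igkc and Ighm, too, passed the minimum level only through the members in both libraries, so the filter fixed their direction. Igkc had 132 CPM (97.4 to 175) in Ctrl, from 48 UMIs in 22 members, and 149 CPM (109.5 to 198) in AD, from 47 UMIs in 9 members. The Foxp3-negative cells had 23.0 and 8.25 CPM, and all kept cells 3.04 and 4.20 CPM. Ighm had 154 CPM in 27 Ctrl members and 171 CPM in 20 AD members, against 48.8 and 16.5 CPM. Of the AD Igkc UMIs 33 were in 3 cells and 18 of those in 1. The B cell genes Ms4a1, Pax5 and Jchain had 0 UMIs in the members of both libraries, while 4 of the 8 genes of the B cell list had a UMI in Ctrl and 3 in AD, the further ones being Cd79b and, in Ctrl, Cd79a. The list summed to 294.5 CPM in Ctrl and 342.5 CPM in AD, led by Ighm.

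**Figure D3:**
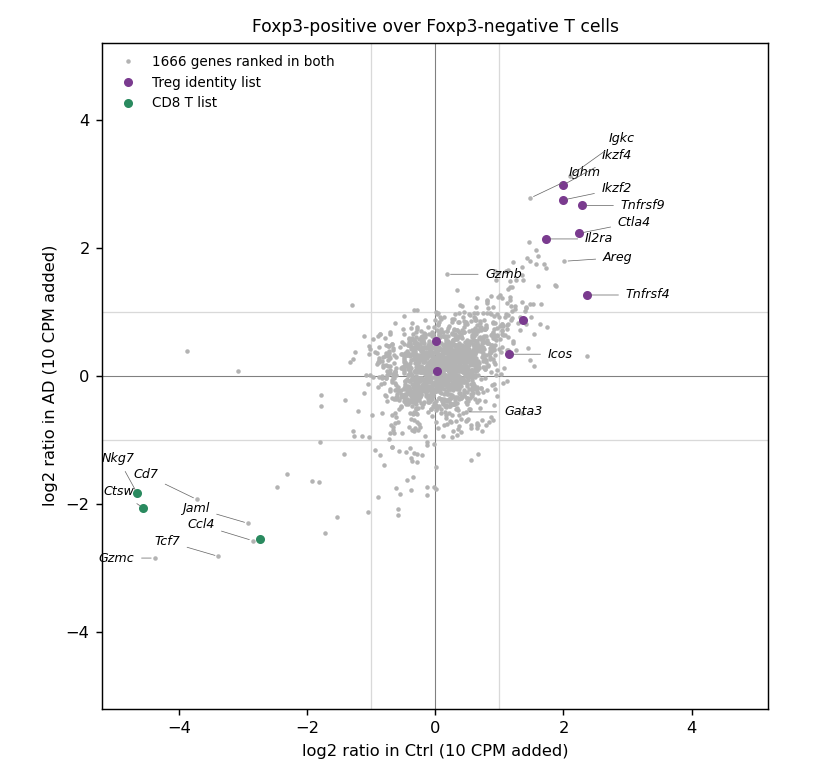
Log2 ratio of Foxp3-positive over Foxp3-negative T cells, Ctrl on the x axis and AD on the y axis, 1 point per gene among the 1666 genes ranked in both libraries (10 CPM added). The 47 genes in the upper right and the 17 in the lower left differed by 2-fold in both, and Ikzf2, Ctla4, Tnfrsf9 and Ikzf4 lay near the upper right end.

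The genes with the lowest ratios in both libraries included several known from cytotoxic and naive T cells, though not all such genes were lower: Ccr7 had 33.0 and 152 CPM in the members against 13.6 and 124 CPM, and Gzmb had 488 CPM in the AD members against 156 CPM. Tcf7 (TCF-1), a factor of naive and memory cells, had 2.75 CPM (1 UMI) in Ctrl and 15.9 CPM (5 UMIs) in AD, against 123 and 173 CPM in the Foxp3-negative cells. Nkg7, a gene of cytotoxic granules, had 11.0 and 47.6 CPM against 521 and 194 CPM, and Ctsw 2.75 and 19.0 CPM against 292 and 111 CPM. The chemokine genes Ccl5 and Ccl4 had 88.1 and 22.0 CPM in Ctrl members and 28.5 and 15.9 CPM in AD members, against 641 and 221 CPM in Ctrl and 216 and 144 CPM in AD. Other genes among the 10 with the lowest ratios in both libraries included Jaml, Cd7, Ms4a4b and Gzmc. Gzmc rested on few cells, since its 370.1 and 130.4 CPM in the Foxp3-negative groups came from 28 and 7 cells.

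The CD8 T cell list was low in the members by its summed level, given above. Its ranked genes, 5 in Ctrl and 3 in AD, passed the minimum level only through the Foxp3-negative cells, so their direction was fixed by the filter and is not counted. The list summed to 1829.8 CPM in the Foxp3-negative cells of Ctrl and 656 CPM in those of AD. Of these cells 32.5% in Ctrl and 20.7% in AD held a Cd8 gene without Cd4, and 22.2% and 44.6% held Cd4 without a Cd8 gene, so the groups set against the members differed in make-up between the libraries. Of the ranked genes of resting and central T cells, 3 in Ctrl and 6 in AD, none was higher by 2-fold. Tcf7, lower in both libraries, and Bcl2, lower in AD, passed the minimum level only through the Foxp3-negative cells. Their direction was fixed by the filter and is not counted. Apart from these, Satb1 alone was lower, in AD, where 3.5% of all ranked genes were lower. Satb1 went from -1.06 to -0.96 there without the cells that held UMIs of other skin cells. Bcl2, a survival gene, had 19.0 CPM in the AD members against 180.4 CPM.

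Cytokines of helper T cells were almost absent from the members. A list of 15 summed to 38.5 CPM in the Foxp3-positive cells of Ctrl and 50.7 CPM in those of AD, against 471 and 520.4 CPM in the Foxp3-negative cells, and 12 of the 15 had no UMI in the Ctrl members and 10 none in the AD members. Il17a had 0 UMIs in both groups of members and 58.8 and 86.4 CPM in the Foxp3-negative cells, at least 7.12-fold lower in Ctrl and at least 9.08-fold lower in AD, against 3 UMIs over the members. Il2, which regulatory T cells consume and do not make, also had 0 UMIs, against 50.2 and 41.3 CPM, at least 6.08-fold and 4.34-fold lower. Ifng had 5.51 and 6.34 CPM against 194 and 85.3 CPM.

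The type 2 cytokine genes Il13 and Il4 were found mainly in the Foxp3-negative cells of AD, the group that also held the mast cell and basophil genes given above, whose part was not tested. Il13 had 0 UMIs in the members of both libraries and 10.0 CPM in the Foxp3-negative cells of Ctrl and 50.6 CPM in those of AD. Il4 had 0 and 3.17 CPM in the members against 3.59 and 91.9 CPM. Gata3, which drives these genes, was present in the members at 391 CPM (329 to 461) in Ctrl and 241 CPM (189.9 to 302) in AD, against 279 and 361 CPM. The Foxp3-positive cells had more of it than the negative ones in Ctrl and less in AD. None of the ranked helper regulators, 6 in Ctrl and 4 in AD, differed by 2-fold, which is no result for so few genes beside the 6.5% higher and 4.94% lower in Ctrl and 4.56% and 3.5% in AD over all ranked genes.

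Receptors of migration differed in part. Of the ranked trafficking genes 2 of 9 were higher (Ccr2 and Gpr55) and 2 lower by 2-fold (Cxcr6 and Itgb1) in Ctrl, and in AD 1 of 8 was higher (Ccr2) and 1 lower (Cd69), where 6.5% of all ranked genes were higher and 4.94% lower in Ctrl and 4.56% and 3.5% in AD. The medians of the list were -0.03 and 0.01, beside 0.18. In Ctrl, Cxcr6 passed the minimum level only through the Foxp3-negative cells, and in AD, Ccr2 only through the members. The filter fixed the direction of these. Ccr2, a receptor of inflammatory chemokines, had 259 CPM in 49 Ctrl members and 124 CPM in 15 AD members, against 121 and 47.9 CPM, with log2 ratios of 1.03 and 1.21, the first of which became 0.23 without the cells that held UMIs of other skin cells. Gpr55 had 377 and 88.8 CPM against 129 and 77.6 CPM. It was higher by 2-fold in Ctrl, at a log2 ratio of 1.48, and was not ranked in AD. Cxcr6 had 41.3 CPM and 0 UMIs in the members against 147 and 67.7 CPM. The retention gene Cd69 had 578 and 292 CPM against 705 and 754 CPM, and its log2 ratio was -1.34 in AD. Itgae (CD103), the integrin chain that binds E-cadherin of keratinocytes, had 416 CPM (352 to 488) and 146 CPM (107 to 195) in the members and 408 and 138 CPM in the Foxp3-negative cells. Its positive and negative levels overlapped within their intervals in both libraries, while both were lower in AD.

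Genes of the JAK-STAT pathway, the target of the inhibitor studied with this model, were mostly within 2-fold in both libraries. In Ctrl 4 of 14 ranked genes of the list were higher by 2-fold and none lower (median log2 ratio 0.78, beside 0.18), and in AD 1 of 13 was (median -0.18, beside 0.18), where 6.5% of all ranked genes were higher in Ctrl and 4.56% in AD, the latter near the list's count. The higher genes, Stat5a, Stat5b, Socs2 and Il6st in Ctrl and Il6st in AD, passed the minimum level only through the members. Their direction was fixed by the filter, so these counts are no result about the list. Stat5a, which relays the interleukin 2 signal, had 140.4 and 76.1 CPM in the members against 48.8 and 72.6 CPM. Stat5b had 184 and 178 CPM against 81.8 and 89.7 CPM, and Il6st (gp130), a shared receptor chain of the interleukin 6 family, 262 and 159 CPM against 94.7 and 50.1 CPM. Socs2, a feedback inhibitor, had 105 CPM in 16 Ctrl members, with 22 of its 38 UMIs in 3 cells, against 23.0 CPM, and its log2 ratio of 1.80 became -0.075 without the cells that held UMIs of other skin cells, while that of Stat5b went from 1.08 to 0.92. Among the kinases, Jak1 had 429 and 289 CPM against 379 and 327 CPM, Jak2 336 and 247 CPM against 173 and 211 CPM, and Jak3 and Tyk2 did not exceed 33.0 CPM in any of the 4 groups. Il4ra, the receptor chain of interleukins 4 and 13, had 143 and 88.8 CPM against 70.3 and 104 CPM.

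Most genes of recent receptor stimulation were within 2-fold. Among the ranked genes of T cell receptor activation, 1 of 13 was higher (Cd5, at 1.03, or 0.97 without the cells that held UMIs of other skin cells) and 1 lower (Nr4a2) by 2-fold in Ctrl, and none was higher and 4 of 13 lower in AD (Nr4a2, Egr1, Nfkbid and Tnfaip3), of which Egr1 went from -1.17 to -0.76 without the cells that held UMIs of other skin cells. Over all ranked genes 6.5% were higher and 4.94% lower in Ctrl, near the list's counts, and 4.56% and 3.5% in AD, and the median of the list was 0.27 in Ctrl and -0.67 in AD, beside 0.18. Nr4a1, an immediate target of the receptor, had 1561 CPM in Ctrl and 676 CPM in AD, against 821 and 739.9 CPM. Nr4a2 had 179 and 88.8 CPM against 535 and 447 CPM, at log2 ratios of -1.53 and -2.21, so members of this family of nuclear receptors differed in opposite directions in Ctrl. In AD, Nr4a2 and Egr1 passed the minimum level only through the Foxp3-negative cells, so the filter fixed their direction. Of the interferon response list 2 of 5 ranked genes were higher in Ctrl and 1 of 4 in AD. The GTPase gene Igtp was among them in both, at 159.7 and 111 CPM against 48.8 and 45.7 CPM. It passed the minimum level only through the members, so the filter fixed its direction. Of the 8 ranked cell cycle genes 1 was lower in Ctrl (Pclaf) and none differed by 2-fold in AD. Mki67, a proliferation marker, was found in 19 Ctrl and 10 AD members, whose median depths of 5597 and 15162 UMIs were above those of all members.

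Between the conditions, more genes were lower than higher in the AD members. Of 2215 ranked genes 113 (5.1%) were higher by 2-fold in AD than in Ctrl and 239 (10.8%) lower. In the Foxp3-negative cells 43 of 1903 (2.26%) were higher and 159 (8.36%) lower. The median over all ranked genes was a log2 ratio of -0.20 in the members and -0.18 in the Foxp3-negative cells. The split depends on the scaling: by the median of ratios, which moved the median of all ranked genes by 0.13, 162 genes were higher and 189 lower in the members, and without mitochondrial, ribosomal and haemoglobin genes in the totals, which moved the median of all ranked genes by 0.20, 240 were higher and 209 lower.

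The 15 identity genes apart from Foxp3 summed to 7788 CPM in the Ctrl members and 7932 CPM in the AD members, and to 2729.9 and 2749 CPM in the Foxp3-negative cells. Within the list 2 of 11 ranked genes (Tnfrsf9 and Lrrc32) were higher by 2-fold in the AD members and 1 (Itgae) lower. Over all ranked genes 5.1% were higher and 10.8% lower, the latter near the list's count. Lrrc32 passed the minimum level only through the AD members, so the filter fixed its direction. The median log2 ratio of the list was 0.38, beside -0.20 over all ranked genes. Without the cells that held UMIs of other skin cells the median became -0.11 and Lrrc32 0.83, within 2-fold. Ctla4 was higher in AD at a log2 ratio of 0.71 and Il2ra at 0.79, with intervals apart in both. For Il2ra 105 of the 215 AD UMIs were in 3 cells, the log2 ratio was 0.16 by the mean of CPM over cells, and after thinning it was found in 30.9% of the Ctrl and 30.2% of the AD members. Its higher sum in AD thus lay in few cells, whereas Ctla4 was found in 54.6% and 74.4% after thinning. Ikzf2 was lower at -0.62. In the Foxp3-negative cells Ctla4 differed alike, at 0.74, while Il2ra differed by 0.39 and Ikzf2 by -1.37.

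**Figure D4:**
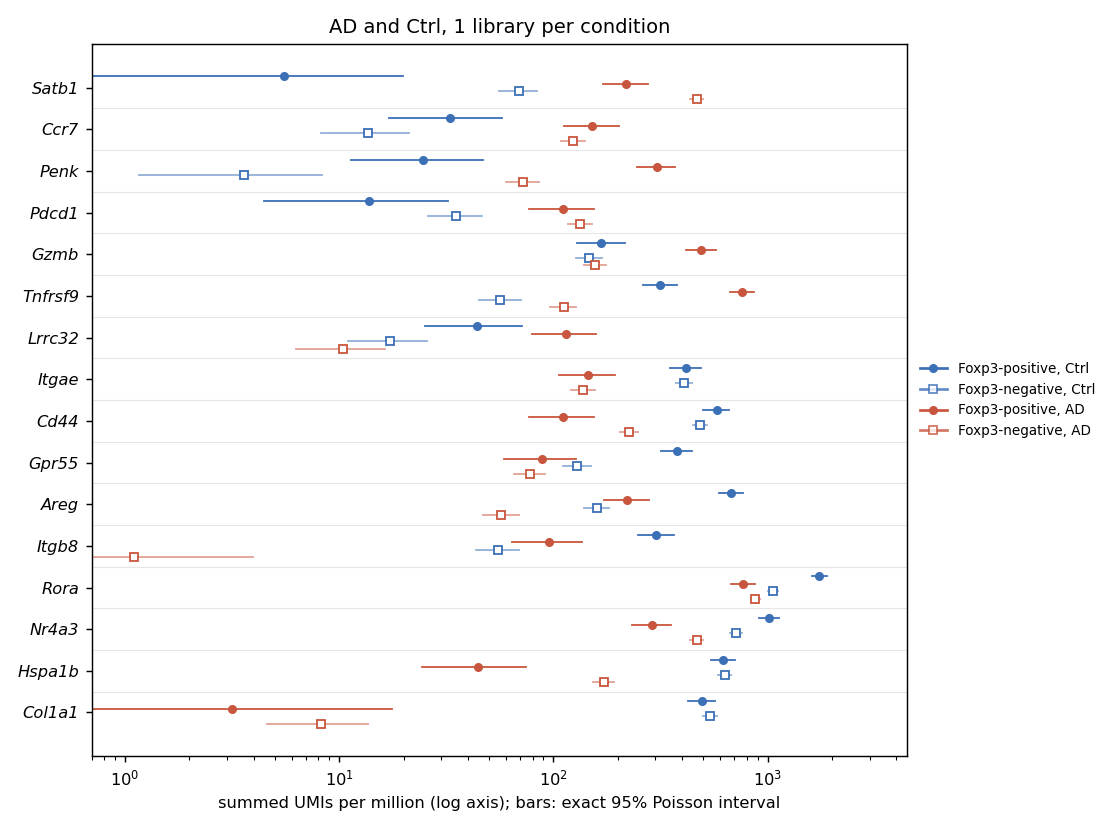
Levels in the Foxp3-positive cells of the Ctrl and the AD library, in CPM on a log axis with exact 95% Poisson intervals (1 library per condition, intervals that reach below the axis are clipped at its edge). Satb1 and Pdcd1 were higher in AD, and Areg, Itgae, Cd44 and Hspa1b lower.

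Among the genes higher in the AD members, Satb1, a chromatin organiser that is silenced in many regulatory T cells, had the highest ratio. It had 5.51 CPM in Ctrl, from 2 UMIs in 2 cells, and 219 CPM (170.3 to 277) in AD, from 69 UMIs in 25 of 43 cells. The Foxp3-negative cells showed the same direction with 68.9 and 466 CPM, so the log2 ratio was 3.88 in the members and 2.60 in the negative cells, and the AD members had less Satb1 than the AD negative cells. Ccr7, the receptor that guides cells to lymph nodes, had 33.0 CPM in 7 Ctrl members and 152 CPM in 14 AD members, and 13.6 and 124 CPM in the negative cells. In the members and the negative cells alike, Satb1 and Ccr7 passed the minimum level only through AD, so the filter fixed their direction. Klf2, a factor of circulating T cells, went the other way, with 82.6 CPM in Ctrl, 16 of its 30 UMIs in 1 cell, and 31.7 CPM in AD.

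Pdcd1 (PD-1), an inhibitory receptor, had 13.8 CPM in Ctrl and 111 CPM in AD, the latter from 10 cells with 23 of the 35 UMIs in 3 of them, and 35.1 and 134 CPM in the Foxp3-negative cells, and its log2 ratio in the members, 2.35, became 1.49 without the cells that held UMIs of other skin cells. Gzmb, a cytotoxic protease, had 168 CPM (128 to 216) in 22 Ctrl members and 488 CPM (414 to 572) in 23 AD members, with 40 of its 154 AD UMIs in 1 cell and 80 in 3. After thinning it was found in 13.4% (7.33 to 21.8) and 23.3% (11.8 to 38.6) of the members, with overlapping intervals, and its log2 ratio of 1.49 became 2.56 without the cells that held UMIs of other skin cells. In the Foxp3-negative cells Gzmb was level, at 147 and 156 CPM, with overlapping intervals. Penk, the precursor of enkephalins, had 24.8 CPM in Ctrl and 304 CPM (247 to 372) in AD, but 66 of the 96 AD UMIs were in 1 cell and only 6 cells held it. Penk therefore described few cells. Pdcd1 and Penk passed the minimum level in the members only through AD, so the filter fixed their direction.

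The other genes among the 12 highest were Sv2c, Npm3, Gimap5, Gimap6, Psmg4, Phgdh, Snhg3 and Klhdc2. Npm3, a nucleolar chaperone, had 49.6 CPM in 12 Ctrl members and 260.1 CPM in 34 AD members, against 84.6 and 138 CPM in the negative cells. The GTPase genes Gimap5 and Gimap6, of a family that supports lymphocyte survival, had 38.5 and 55.1 CPM in Ctrl and 199.8 and 241 CPM in AD. Sv2c, a synaptic vesicle gene, had 22.0 and 149 CPM, and 7.17 and 111 CPM in the negative cells. Phgdh, the entry enzyme of serine synthesis, had 24.8 and 130.0 CPM, Psmg4, a proteasome chaperone, 19.3 and 111 CPM, and Snhg3 and Klhdc2 19.3 and 101 CPM each. Each of these genes passed the minimum level only through the AD members, so the filter fixed its direction. The intervals of the libraries lay apart, but the genes had been chosen by these same ratios, so this adds no support.

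Some genes of the tissue programme were lower in the AD members and most were within 2-fold. Of 17 ranked genes of the tissue regulatory T cell list 2 were higher (Penk and Gzmb) and 4 lower by 2-fold (Areg, Rora, Maf and Fgl2), where 10.8% of all ranked genes were lower, with a median log2 ratio of -0.38, beside -0.20 over all ranked genes. Penk passed the minimum level only through AD and Fgl2 only through Ctrl, so the filter fixed their direction. Maf became -0.72 without the cells that held UMIs of other skin cells. Areg stood at the 677 and 222 CPM given above, a log2 ratio of -1.57, and after thinning it was left in 39 of 97 Ctrl and 3 of 43 AD members. Rora, a nuclear receptor of type 2 and tissue lymphocytes, had 1748 CPM in Ctrl and 771 CPM in AD, and Maf had 862 and 409 CPM. Fgl2, a secreted suppressive protein, had 325 and 82.5 CPM, and its log2 ratio of -1.86 became -1.05 without the cells that held UMIs of other skin cells. In the Foxp3-negative cells Areg was also lower, at -1.34, and Rora and Maf differed by -0.27 and -0.38.

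A few adhesion and migration genes were lower too. Cd44, the hyaluronan receptor of activated T cells, had 578 CPM in 77 Ctrl members and 111 CPM in 19 AD members, and 483 and 226 CPM in the negative cells, with log2 ratios of -2.28 and -1.06. Itgae differed by -1.45 in the members and -1.50 in the negative cells, and after thinning it was left in 29 of 97 and 3 of 43 members. Itgb8 differed by -1.57, Gpr55 by -1.97 and Ccr2 by -1.01 in the members, the last becoming -0.41 without the cells that held UMIs of other skin cells. Of the 9 ranked genes of the trafficking list 3 were lower by 2-fold (Ccr2, Gpr55 and Cd44), none higher and 6 within 2-fold, where 10.8% of all ranked genes were lower, with a median log2 ratio of -0.29, beside -0.20. Itgb8 and Gpr55 passed the minimum level in the members only through Ctrl, so the filter fixed their direction. The chemokine receptors Ccr6 and Ccr4 were below the minimum for ranking, at 74.3 and 19.0 CPM for Ccr6 and 38.5 and 66.6 CPM for Ccr4.

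**Figure D5:**
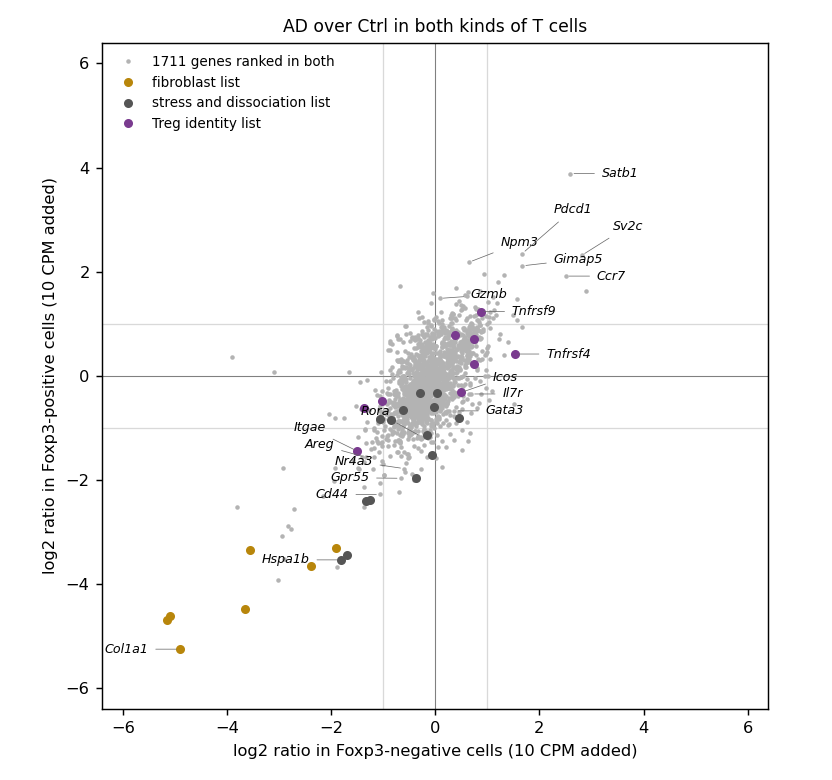
Log2 ratio of AD over Ctrl in the Foxp3-negative (x axis) and the Foxp3-positive cells (y axis), 1 point per gene among the 1711 genes ranked in both (10 CPM added, 1 library per condition). Satb1 lay at 3.88 in the positive and 2.60 in the negative cells, and collagen genes lay at the lower left.

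The lowest ratios were mostly those of genes known from other skin cells. The 12 lowest were the fibroblast and matrix genes Col1a1, Col1a2, Col3a1, Sparc, Dcn, Timp3, Nfib and Aebp1, the pericyte gene Rgs5, the basal keratinocyte gene Krt14, the interferon-induced GTPase gene Iigp1 and the heat shock gene Hspa1b. All 7 ranked genes of the fibroblast list, in the members and in the Foxp3-negative cells, passed the minimum level only through Ctrl. Their direction was fixed by the filter and is not counted, and the summed levels of the list are given above. The other genes of the 12 lowest also passed the minimum level in the members only through Ctrl. Rgs5 had 51 of its 52 Ctrl UMIs in 1 cell, and Nfib 40 of its 69. Without the cells that held UMIs of other skin cells the log2 ratios of Nfib and Timp3 became -0.86 and -0.53. Dcn then went from -3.65 to -1.37, Col1a2 from -4.69 to -3.00 and Col3a1 from -4.63 to -3.32. Sparc went from -4.49 to -3.02, Aebp1 from -3.55 to -2.40 and Iigp1 from -3.74 to -2.75. Iigp1 had 124 CPM in 13 Ctrl members, with 26 of its 45 UMIs in 3 cells, and 0 UMIs in AD, and 47.3 and 4.40 CPM in the negative cells. The level in the AD members was at least 13.0-fold lower than in Ctrl, against 3 UMIs.

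Genes that tissue digestion is known to induce moved with the library too. Of the 14 ranked genes of stress and dissociation, 7 were lower by 2-fold in the AD members, 4 of them also without the cells that held UMIs of other skin cells, and none higher (median log2 ratio -0.99, beside -0.20), and 5 of 14 were lower in the Foxp3-negative cells (median -0.49, beside -0.18). Over all ranked genes 10.8% were lower in the members and 8.36% in the negative cells. Jun, Atf3, Hspa1a and Hspa1b passed the minimum level in the members only through Ctrl, so the filter fixed their direction there. Fos, Fosb and Zfp36 reached that level in the members of both libraries. Jun had 394 CPM in Ctrl and 66.6 CPM in AD, Fos 509 and 124 CPM, and Hspa1b 622 and 44.4 CPM. Without the cells that held UMIs of other skin cells the log2 ratios were -0.91 for Jun, -0.65 for Fosb, -0.76 for Atf3, -1.41 for Fos and -1.48 for Hspa1b, beside -2.40, -1.13, -2.39, -1.96 and -3.54 with them. The early receptor response genes shared this direction: 4 of 13 ranked activation genes were lower (Nr4a1, Nr4a3, Egr1 and Nfkbid) and none higher, with Nr4a3 at 1019 and 289 CPM and Egr1 going from a log2 ratio of -1.80 to -0.86 without those cells, and in the Foxp3-negative cells 1 of 12 was lower. Egr1 also passed the minimum level in the members only through Ctrl, so the filter fixed its direction. The part of handling in these levels was not tested.

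Between the libraries, of 15 ranked JAK-STAT genes 1 was lower by 2-fold in the AD members (Il2rg, the common γ chain, at 330.3 and 149 CPM) and none higher, a count no larger than the 10.8% lower over all ranked genes gives. The median log2 ratio was -0.43 in the members, beside -0.20, and 0.27 in the Foxp3-negative cells, beside -0.18. The interleukin 7 receptor gene Il7r had 520.3 CPM in the Ctrl and 406 CPM in the AD members with overlapping intervals, and 293 and 477 CPM in the negative cells. Il2rb, which shares the interleukin 2 receptor with Il2ra and Il2rg, had 245 and 362 CPM. Of the proliferation genes Mki67 had 539.5 and 257 CPM and Top2a 498 and 165 CPM, both lower in AD. Few cells carried them: 97 of the 196 Ctrl and 63 of the 81 AD UMIs of Mki67 were in 3 cells, and 39 of the 52 AD UMIs of Top2a. The log2 ratio of Mki67, -1.04, was -0.21 with all deposited barcodes, and after thinning it was found in 11.3% and 9.30% of the members, a difference within counting error. By contrast the histone gene H2az1 had 1222 and 2489.7 CPM.

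The ligand applied to the skin acts through the vitamin D receptor, whose gene Vdr was low, with 27.5 CPM in Ctrl and 6.34 CPM in AD members and 22.2 and 5.50 CPM in the Foxp3-negative cells. Cyp24a1, the enzyme that degrades vitamin D and its best known target, had 0 UMIs in the Ctrl members and 9.51 CPM in AD, from 3 UMIs in 3 cells. It had 0 and 25.9 CPM in the negative cells, the latter from 47 UMIs in 7 cells, and 0.190 and 192 CPM over all kept cells. None of the 5 genes of the vitamin D list was ranked in the members. At this depth 0 cells with a UMI of a gene allows up to 3.09% of the Ctrl members and 6.98% of the AD members to hold a UMI, which does not limit how many express the gene.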

How the data were processed

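Dorsal skin of 1 Ctrl and 1 AD library was measured by droplet 3′ single-cell RNA-seq (Chromium v3.1), and the authors deposited filtered gene by cell matrices of UMI counts. Alignment was to mm10 (GRCm38), and the sources give different Cell Ranger versions: 6.0.0 in the design text, 5.0.0 in the matrix header and 3.1.0 in the submitters' processing notes. The matrices held 12598 and 8778 barcodes and 33904 gene identifiers, 32475 of which were found in GENCODE M21.

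The study's stated filter was applied (detected genes between 200 and 6000, mitochondrial share up to 10%), leaving 105195951 UMIs in Ctrl and 61645227 in AD. Doublets were scored with scrublet (scanpy 1.11.5), which called 395 Ctrl cells and no AD cell, so no cell was removed, and an alternative left out the 6% with the highest scores. Raw UMIs were summed over the cells of a group and divided by the group's total to give CPM, with exact Poisson intervals (scipy 1.17.1). Ratios were log2 with 10 CPM added, for genes with at least 100 CPM in one group and 20 UMIs in both. With 1 library per condition no test was made. The computation, in Python 3.11.15 with numpy 2.4.6, pandas 2.3.3 and matplotlib 3.10.9, was tested on simulated data.

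The members and the gene lists (307 genes, 306 of them in the files) were chosen with earlier results of these data known. Besides listed genes, the text names the 15 highest and 10 lowest by the smaller and the larger ratio of the 2 libraries, and the 12 highest and 12 lowest of AD over Ctrl, leaving out the genes of the gates. The use of comparison cells that also met the CD3, Trdc, Pdgfra and C1qa conditions was settled after the markers of the cells chosen by receptor UMIs alone had been seen. Bulk RNA-seq and drug-treated groups were not analysed here. Some items are not reported here.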

Additional observations from a re-analysis of the deposited data

Results flagged for a closer look

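Some genes differed between AD and Ctrl in opposite directions in Foxp3-positive and Foxp3-negative cells, with the counting intervals of the ratios on opposite sides of 0. On the log2 scale, AD differed from Ctrl by -0.78 in the positive and 0.35 in the negative cells for the costimulatory receptor Cd28, -0.32 and 0.50 for Icos, -0.68 and 0.36 for Gata3, -0.35 and 0.69 for Il7r, and -0.43 and 0.27 for Jak2. The median over all ranked genes was itself -0.20 in the positive and -0.18 in the negative cells, and without mitochondrial, ribosomal and haemoglobin genes in the totals the ratios in the positive cells moved nearer to 0, to -0.12 for Icos, -0.16 for Il7r and -0.24 for Jak2. With 1 library per condition these differences were not tested.

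Other genes stood on opposite sides of the Foxp3-negative cells in the 2 libraries. The log2 ratio of Foxp3-positive over Foxp3-negative cells was 0.27 in Ctrl and -0.86 in AD for Cd28, 0.47 and -0.57 for Gata3, 0.26 and -0.96 for Cd44, 0.51 and -0.67 for the activation gene Nr4a3, and 0.64 and -0.81 for Zfp36, which destabilises cytokine transcripts. Without the cells that held UMIs of other skin cells the ratios in Ctrl were -0.27 for Nr4a3 and -0.12 for Cd28, the same side as in AD. They were 0.024 for Cd44, 0.31 for Zfp36 and 1.04 for Gata3. These differences were not tested either.

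Cells with a Foxp3 UMI and no CD3 UMI were outside the rule. There were 40 in Ctrl, of which 7 held 2 or more Foxp3 UMIs, 24 held Ctla4 and 24 held Ptprc, while 11 held Pdgfra and 10 held Krt14. In AD there were 12, of which none held 2 Foxp3 UMIs, 3 held Ctla4 and 7 held Ptprc. Their median depths were 2323.5 and 3985 UMIs.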

How the results depend on the processing

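No paired analysis was possible because each condition was 1 library and no test was made. Over 303 gene ratios and 14 settings, 3595 of 4035 recomputed values stayed within the counting interval of the reported value, 431 moved beyond it and 9 values of 2-fold or more changed sign. Leaving out the cells called by scrublet was not run, since it called no AD cell, and ratios of the thinned AD members were not computed, since only 8 remained. The share of gated T cells with Foxp3 was 9.94% in Ctrl and 8.91% in AD with at least 2 Foxp3 UMIs, 8.94% and 3.46% (ratio 0.388) after thinning to 1000 UMIs, and 12.6% and 11.5% when 2 receptor UMIs were asked of the members but not of the other gated cells. Asked of both, which was added after seeing the data, the ratio was 0.810.

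Counts of genes past 2-fold depended on the comparison cells, the scaling and the minimum level. Against all cells with 2 receptor UMIs, 733 were higher and 361 lower in Ctrl (30.6% and 15.1% of those ranked) and 176 and 197 in AD. With no minimum level, the counts were 422 and 644 in Ctrl, 414 and 337 in AD, and 547 and 1249 for AD over Ctrl in the members. Scaling by the median of ratios gave 58 higher in Ctrl and 37 higher and 103 lower in AD, and leaving mitochondrial, ribosomal and haemoglobin genes out of the totals gave 126 lower in AD and 240 higher for AD over Ctrl. With all deposited barcodes 69 were lower in Ctrl and 210 higher for AD over Ctrl. In Ctrl 62 were lower by the mean of CPM over cells and 169 after thinning.

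The median log2 ratio of the identity genes was above 0 within both libraries under every alternative run, but for AD over Ctrl it went from 0.38 to -0.11 without the cells that held UMIs of other skin cells and -0.036 with no minimum level. In Ctrl it was 1.72 with all barcodes, 3.57 against all cells with 2 receptor UMIs, 1.497 without the cells that held UMIs of other skin cells, 1.504 by the mean over cells, 1.62 by the median of ratios and 1.37 with no minimum level, and in AD 1.86 by the mean over cells and 1.06 with no minimum. Among ratios of 2-fold or more, the signs that changed were of Foxp3-positive over Foxp3-negative cells in Ctrl: Jun at 0.18 with all barcodes and 0.27 after thinning, Socs2 at -0.075 without the cells that held UMIs of other skin cells and -0.71 after thinning, Rgs5 at -1.19 and Timp3 at -0.32 without those cells, Timp3 at -0.060 against all cells with 2 receptor UMIs, and Aebp1 at -0.52 with at least 2 Foxp3 UMIs and -3.03 after thinning. Smaller ratios changed sign without the cells that held UMIs of other skin cells as well: AD over Ctrl became 1.57 for Socs2, 0.61 for Itgb1, -0.11 for Ikzf4, -0.40 for Ighm and -0.18 for Tnfrsf18, and in Ctrl the ratio became -0.27 for Nr4a3 and -0.12 for Cd28. The cause was not tested.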
